A study of Mus musculus with 7 samples.

Results

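Batf, Jun, Jund and Jdp2 are 4 of the 752 genes in the deposited table of a study of splenic B cells from Batf knockout (KO) mice. They were taken from the table by their symbols, and each has 1 row. The table holds 3 libraries from Batf KO mice and 4 from wild-type mice, all on the C57BL/6J background. B cells were enriched from spleen on magnetic columns, cultured for 6 h with 20 µg/mL lipopolysaccharide (LPS), a bacterial activator of B cells, and 20 ng/mL interleukin-4 (IL-4), and sequenced from total RNA. The sources used here do not give the design of the Batf KO allele or the age and sex of the mice. The design text also speaks of 2 replicates for each sample, without saying what these are, so each library was counted as 1 mouse. If they are not separate mice, the p-values measure only the spread between these libraries.

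Jun, JunD, BATF and JDP2 are basic leucine zipper (bZIP) proteins of the AP-1 family: a basic region contacts DNA, and a zipper of leucines holds a pair of bZIP proteins together. BATF has no transactivation domain of its own. It pairs with Jun proteins and, together with IRF4 or IRF8, binds composite AP-1 and IRF sites in activated lymphocytes, where it is needed for class switching. Jun and JunD carry activation domains and are the partners, whereas JDP2 pairs with Jun proteins and acts mostly as a repressor at AP-1 sites.

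The promoters of both partner genes are shown because AP-1 factors are known to act on Jun itself, through a variant site of the letters TGACATCA. Each sequence is the stretch before the RefSeq start on the gene's own strand (build GRCm38.p6), in lower case. Matches to the AP-1 type motifs named below are in capitals, and other variants of the site were not searched. The Jun sequence lies at chr4:95052223-95052472 on the minus strand and the Jund sequence at chr8:70697489-70697738 on the plus strand.
Jun promoter: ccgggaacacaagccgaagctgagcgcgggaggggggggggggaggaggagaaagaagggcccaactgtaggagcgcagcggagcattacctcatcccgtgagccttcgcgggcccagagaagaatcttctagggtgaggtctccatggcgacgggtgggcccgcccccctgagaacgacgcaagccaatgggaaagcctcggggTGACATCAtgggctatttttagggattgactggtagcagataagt
Jund promoter: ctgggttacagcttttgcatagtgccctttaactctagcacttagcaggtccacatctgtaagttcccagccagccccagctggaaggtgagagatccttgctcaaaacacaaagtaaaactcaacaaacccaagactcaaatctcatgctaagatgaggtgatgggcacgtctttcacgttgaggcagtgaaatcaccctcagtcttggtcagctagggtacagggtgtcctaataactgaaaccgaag
The Jun window held TGACATCA beginning 45 bases before the start. The letters TGANTCA, TGACGTCA and TGACATCA were searched on both strands in windows of 300 bases, from 250 before to 50 after each start, and a match to one cannot overlap a match to another. They occurred in 7.81%, 1.79% and 3.62% of the 32851 mouse promoter windows, and 12.8% held at least 1 of them. The windows of Batf, Jund and Jdp2 held none of the 3 motifs in these letters. The RefSeq start of Jund lies 1.21 kb before the GENCODE start of the gene, so its window is not the sequence next to the GENCODE start. A match in letters is a description of the sequence, and no binding was measured here.

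The table lists only genes that differed between the genotypes at a false discovery rate (FDR) under 0.05 in the authors' own test. That test called 752 of 19734 genes (3.81%), with 1.95% higher and 1.86% lower in Batf KO. That the 4 genes differ is therefore a condition of their being listed. The tests below describe the size of each difference against the spread between libraries. The edgeR test takes part of that spread from the other fitted genes, all of them selected in this way. Effective library sizes, recovered from counts and CPM (reads scaled to a common library size), ranged between 23675459 and 44728937 over the 7 libraries. They include any scaling factor that was used for the CPM. Over the table, wild-type libraries 1 and 2 (chi-square per degree of freedom 18.4) and 3 and 4 (20.8) were closer to each other than the remaining wild-type pairs (33.4 to 49.8). Of 9 B cell markers, Ms4a1 (CD20) and Blnk are listed, and both were higher in Batf KO. Ms4a1 was at 580 ± 39.6 CPM in wild type (SD, n = 4) and 879 ± 40.9 CPM in Batf KO (SD, n = 3), 1.52-fold higher, and Blnk at 165 ± 4.40 and 207 ± 16.3 CPM, 1.26-fold higher. Over 19734 genes Ms4a1 passed (edgeR adjusted p = 0.00392) and Blnk did not (0.0576). The other 7 have no level here, and the part of these marker differences in the results below was not tested.

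Batf, the gene disrupted in the knockout, was measured at 315, 307, 333 and 322 CPM in wild-type replicates 1 to 4 and at 63.4, 70.3 and 65.8 CPM in Batf KO replicates 1 to 3. All Batf KO libraries lay far below all wild-type libraries, with a gap of 236 CPM between the groups. Batf fell by 2.26 on the log2 scale (SE 0.07, edgeR adjusted p = 1.01e-07), to 20.8% of its wild-type level. Only 10 of the 667 listed genes with a mean of at least 1 CPM fell further. The remaining signal was not a matter of a few reads: 5408 reads were counted for Batf in the 3 Batf KO libraries and 44724 in the 4 wild-type libraries. The gene (ENSMUSG00000034266) spans chr12:85686669-85709087 on the plus strand of GRCm38. Counts per gene do not say which of its exons the remaining reads came from.

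Jun, the founding member of the Jun family and an immediate early gene, stood at 160, 162, 120 and 124 CPM in wild-type replicates 1 to 4 and at 276, 252 and 239 CPM in the Batf KO replicates. The groups did not overlap. Wild-type replicates 1 and 2 were higher than replicates 3 and 4, the same pairs that were alike over the whole table, and the part of that split in the result was not tested. Jun rose 1.81-fold (log2 fold change 0.86, SE 0.12, edgeR adjusted p = 0.000338). It lies at chr4:95049034-95052222 on the minus strand and consists of 1 exon.

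Jund, which encodes the Jun protein found in many resting as well as activated cells, stood at 111, 160, 131 and 141 CPM in wild-type replicates 1 to 4 and at 226, 178 and 172 CPM in the Batf KO replicates. The groups were separated by 12.1 CPM only, between wild-type replicate 2 and Batf KO replicate 3. Jund rose 1.41-fold (log2 fold change 0.50, SE 0.14, edgeR adjusted p = 0.00673). This call did not hold when the p-values were adjusted over all 19734 genes that the authors tested (edgeR adjusted p = 0.199). Without Batf KO replicate 1, its highest library, the log2 fold change was 0.37. Jund lies at chr8:70698949-70700616 on the plus strand and also has 1 exon.

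Jdp2, the repressor, was the scarcest of the 4 genes, at 6.25, 6.44, 6.55 and 6.07 CPM in wild-type replicates 1 to 4 and at 3.76, 3.15 and 2.41 CPM in the Batf KO replicates. The wild-type libraries were almost level, and each Batf KO library was below them. Jdp2 fell by 1.02 on the log2 scale (SE 0.17, edgeR adjusted p = 0.000805), to 49.1% of wild type. These values rest on 258 reads in Batf KO and 887 in wild type. Jdp2 lies at chr12:85599027-85639878 on the plus strand, 46.8 kb before Batf on the same chromosome.

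**Figure D1:**
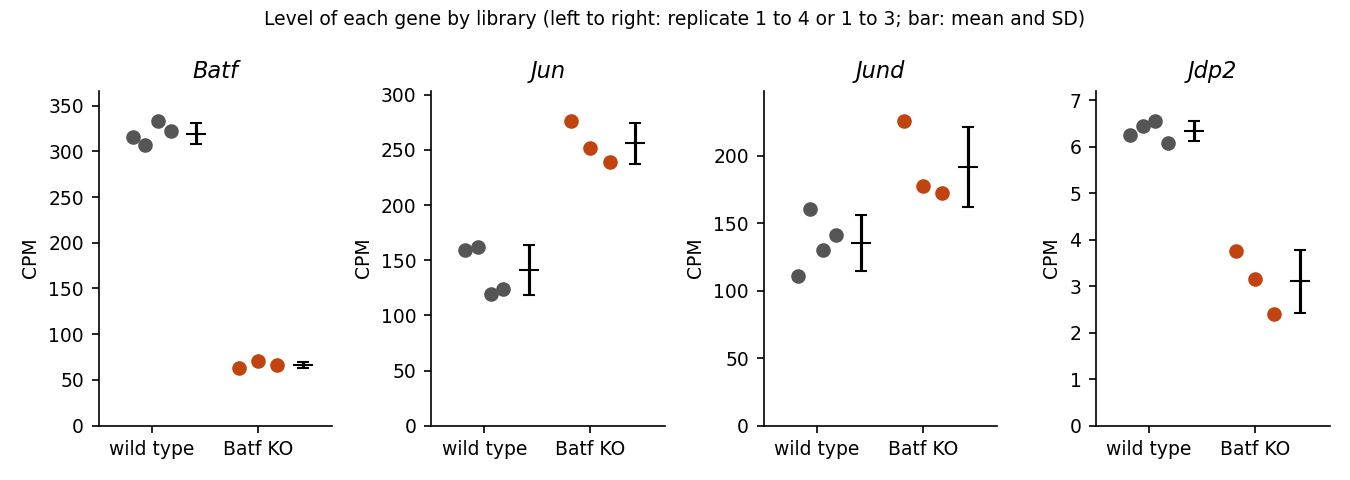
Level of each gene in CPM (y axis, from 0) in the 4 wild-type and 3 Batf KO libraries (points, in order of replicate), with the mean and SD beside them. Batf and Jdp2 are lower and Jun and Jund higher in Batf KO, and for Jund the groups are separated by only 12.1 CPM.

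All 4 genes passed the edgeR test, as did 667 of the 667 fitted genes (100%), of which 50.8% were higher and 49.2% lower in Batf KO. For the 4 genes the lack of overlap between groups is no distinction, since 96.1% of the 667 fitted genes showed it. With adjustment over 19734 genes, Batf (edgeR adjusted p = 2.98e-06), Jun (0.00999) and Jdp2 (0.0238) passed and Jund did not, and 42.9% of the fitted genes passed, 20.1% as higher and 22.8% as lower. With CPM as the value per library, the exact permutation test (two-sided, 35 assignments of libraries to genotypes) gave p = 0.0286 for Batf, Jun and Jdp2, the smallest it allows, and p = 0.0571 for Jund. In size, 88 fitted genes rose more than Jun, 219 more than Jund, and 70 fell further than Jdp2. The median log2 fold change of the fitted genes that rose was 0.59, so Jun lay above and Jund below the middle of the genes that rose.

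The spread within a group, which also enters the authors' test that selected the table, is given as a description. In wild type the SD of Jun was 22.6 CPM and that of Jund 20.8 CPM, 10.9 and 10.2 times what counting error alone gives at these depths. The SD of Batf was 11.2 CPM, 3.61 times its counting error. Jdp2, with the fewest reads, varied by an SD of 0.21 CPM, less than its counting error of 0.44 CPM. As a share of the mean, the wild-type SD was 3.51% for Batf, 16.0% for Jun, 15.3% for Jund and 3.39% for Jdp2, against a median of 10.5% over the fitted genes. In Batf KO these shares were 5.25%, 7.32%, 15.4% and 21.8%, against a median of 8.89%. Jun, Jund and Jdp2 were each highest in Batf KO replicate 1, and Batf was lowest there.

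To compare levels between genes, CPM were divided by the summed length of each gene's annotated exons, which is 1406 bp for Batf, 3189 bp for Jun, 1668 bp for Jund and 2148 bp for Jdp2. In wild type Batf was the most abundant, at 227 ± 7.97 CPM per kb, followed by Jund at 81.4 ± 12.5, Jun at 44.3 ± 7.08 and Jdp2 at 2.95 ± 0.10 CPM per kb (SD, n = 4). In Batf KO the order was Jund at 115 ± 17.7, Jun at 80.2 ± 5.87, Batf at 47.3 ± 2.48 and Jdp2 at 1.45 ± 0.32 CPM per kb (SD, n = 3). Neighbours in each order did not overlap between any libraries of the group. The length of Jund counts from its GENCODE start, 1.21 kb after its RefSeq start, and a longer Jund was not tried. On the scale of CPM without length, Jun and Jund overlapped in wild type. In Batf KO Jun was above Jund on that scale, at 239 to 276 against 172 to 226 CPM. The order of Jun and Jund therefore depends on the lengths used.

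Batf made up 63.9 ± 3.22% of the summed CPM per kb of the 4 genes in wild type (SD, n = 4) and 19.5 ± 2.39% in Batf KO (SD, n = 3). The partners Jun and Jund together made up 35.3 ± 3.23% and 79.9 ± 2.35%. Jun took 12.5% of the sum in wild type and 32.9% in Batf KO, Jund 22.8% and 47.0%, and Jdp2 0.83% and 0.59%. The sum itself was lower in Batf KO, at 244 ± 22.1 CPM per kb against 356 ± 10.1 CPM per kb, although Jun and Jund together were higher, at 195 ± 23.4 against 126 ± 14.6 CPM per kb. These shares are of transcripts, depend on the lengths used and shift for all 4 genes when Batf alone falls. Protein was not measured.

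**Figure D2:**
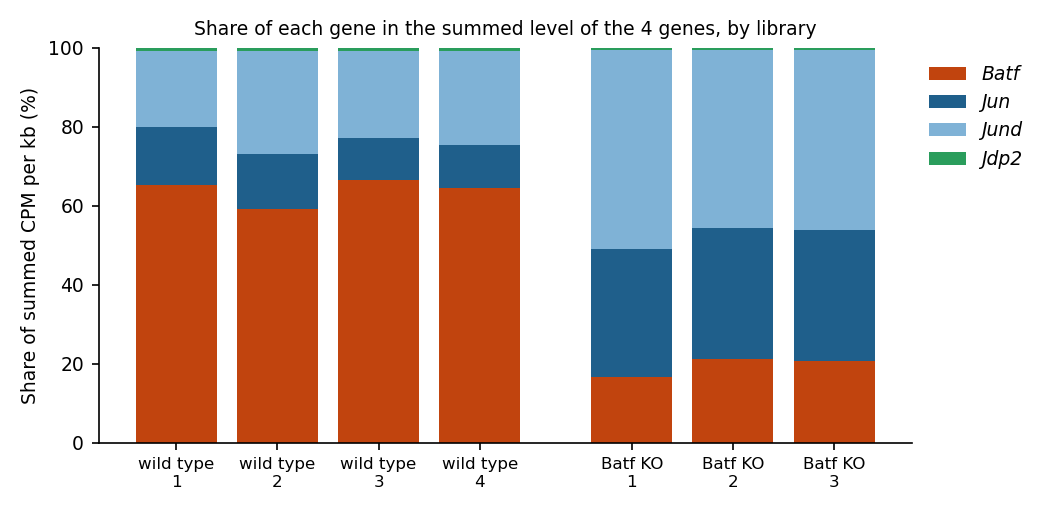
Share of each gene in the summed CPM per kb of exon of the 4 genes (y axis, in percent), with 1 bar per library. Batf takes 59.3% to 66.6% of each wild-type bar and 16.8% to 21.1% of each Batf KO bar, and Jdp2 is the thin band on top, under 1% in each library.

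The ratios between the genes were compared within each library, as log2 ratios of CPM, where gene length cancels between the groups. No test was run on them, because the genes were chosen with their differences known. The ratio of Jun to Batf differed most. It was 0.36 to 0.53 in the wild-type libraries and 3.59 to 4.36 in the Batf KO libraries, an 8.76-fold difference (3.13 on the log2 scale). The ratio of Jund to Batf was 0.35 to 0.52 in wild type and 2.53 to 3.56 in Batf KO, a 6.80-fold difference. Each partner was thus scarcer than Batf in all wild-type libraries and more abundant in all Batf KO libraries on this scale. Most of both differences is the fall of Batf, the disrupted gene, by 2.26 on the log2 scale. Jun rose by 0.86 and Jund by 0.50 on the log2 scale.

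The balance of each partner with the repressor Jdp2 differed as well. Among other bZIP repressor genes described below, Atf3 rose and Nfil3 and Bach2 fell, so these ratios stand for Jdp2 only. The CPM ratio of Jun to Jdp2 was 18.3 to 25.5 in wild type and 73.4 to 99.4 in Batf KO, a 3.77-fold difference. For Jund to Jdp2 it was 17.7 to 24.9 and 56.3 to 71.6, a 2.93-fold difference. Per kb of exon this amounts to 15.1 ± 2.41 Jun per Jdp2 in wild type (SD, n = 4) and 56.7 ± 9.11 in Batf KO (SD, n = 3). Batf and Jdp2 both fell, Batf more: their ratio was 47.6 to 53.1 in wild type and 16.9 to 27.4 in Batf KO, a 2.32-fold decrease. The balance between both partners differed least. Jun to Jund was 0.88 to 1.44 in wild type and 1.22 to 1.42 in Batf KO, and here the groups overlapped, since wild-type replicate 1 had the highest ratio of all.

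**Figure D3:**
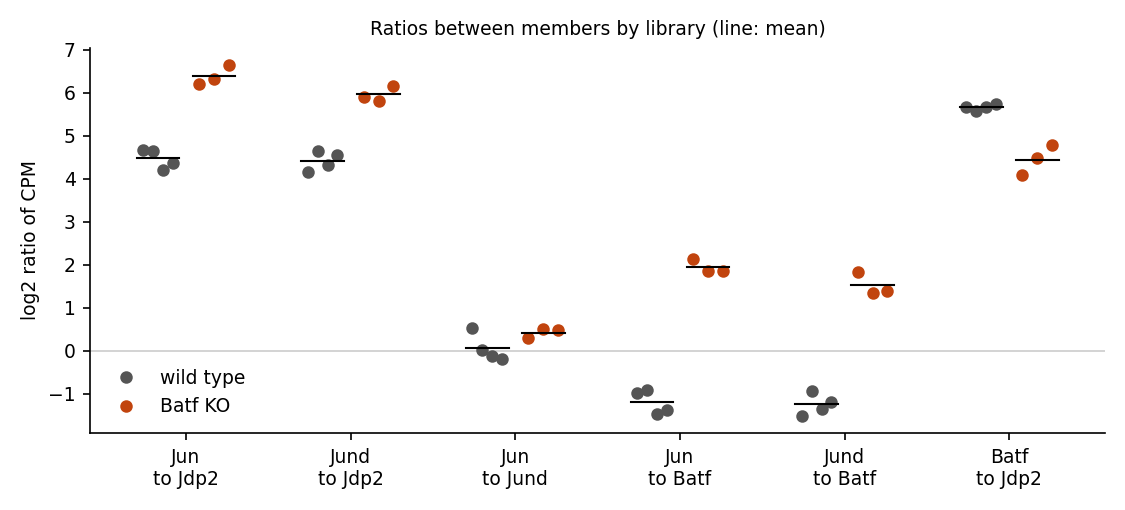
The log2 ratio of CPM between pairs of the 4 genes (y axis) in each wild-type and Batf KO library (points), with the group mean as a line. The groups overlap for Jun to Jund and are apart for each of the other ratios drawn.

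Of 31 AP-1 and other bZIP genes, 10 were listed, 4 higher and 6 lower in Batf KO. Leaving out the 4 described above, 6 of 27 were listed (22.2%, against 3.81% of all genes tested). This list and the IRF, kinase and immediate early lists below were chosen with earlier results of these data known. Their shares are therefore descriptions only. Atf3, a stress-induced bZIP repressor, stood at 34.1 ± 7.40 CPM in wild type (SD, n = 4) and rose to 56.0 ± 9.61 CPM in Batf KO (SD, n = 3). Of the lower genes, Nfil3, a bZIP repressor that the series title names as regulated by BATF, fell 3.31-fold. Bach2, a bZIP repressor that holds back plasma cell differentiation, fell 1.81-fold. The cAMP-responsive factor genes Crem and Creb1 fell 1.60-fold and 1.24-fold. Atf3 (edgeR adjusted p = 0.130) and Creb1 (0.0624) did not pass over 19734 genes. The other 21 genes, among them the Fos genes (Fos, Fosb, Fosl1, Fosl2), Junb, Batf2 and Batf3, did not pass the authors' threshold or were not tested, and have no level here. The share of the Jun proteins' other partners can therefore not be given.

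Both IRF partners of BATF were listed, and both rose, where 3.81% of all genes tested were listed and 1.95% were listed as higher. Irf4 was at 597 to 727 CPM in wild type and 1371 to 1566 CPM in Batf KO, and Irf8 at 429 to 604 and 743 to 769 CPM. Irf4 and Irf8 rose 2.18-fold and 1.52-fold, beside 1.81-fold for Jun and 1.41-fold for Jund. Of 27 genes of the kinase pathways that act on Jun, 3 were listed (11.1%, against 3.81% of all genes tested). Dusp10, a phosphatase of JNK and p38, fell 1.73-fold, and Map3k1, a kinase upstream of JNK, fell 1.31-fold. Dusp1, a phosphatase of the same kinases, rose 1.80-fold. Dusp1 (edgeR adjusted p = 0.0796) and Map3k1 (0.0572) did not pass over 19734 genes. The JNK genes Mapk8 and Mapk9 were not listed.

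Jun is an immediate early gene, and 8 of 16 other genes of that class were listed, 6 higher and 2 lower, where 3.81% of all genes tested were listed, 1.95% as higher and 1.86% as lower. The nuclear receptor genes Nr4a1 and Nr4a3 rose, Nr4a1 from between 70.5 and 82.9 CPM in wild type to between 120 and 162 CPM in Batf KO, and Nr4a3 from between 40.1 and 51.3 to between 71.4 and 90.2 CPM. Ier2 rose 1.43-fold, Ier3 2.04-fold, the mRNA decay factor gene Zfp36 1.25-fold and Srf, which encodes a factor that drives many genes of this class, 1.24-fold. The zinc finger factor gene Egr2 went the other way, from 34.5 ± 7.27 to 11.2 ± 1.86 CPM, and Klf6 fell 1.34-fold. Over 19734 genes, Nr4a1, Nr4a3, Ier2 and Egr2 passed, and Ier3 (edgeR adjusted p = 0.140), Zfp36 (0.177), Srf (0.0949) and Klf6 (0.202) did not. In the authors' deposited table the median log2 fold change was 0.42 over the 8 listed genes and -0.49 over the 10 listed AP-1 and bZIP genes, beside 0.31 over all 752. Every listed gene differs by selection, so such medians mainly follow how many rose and how many fell, 384 and 368 of the 752. The 10 genes include Batf, Jun, Jund and Jdp2, which were chosen with their differences known. Egr1, Egr3 and Myc were not listed.

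**Figure D4:**
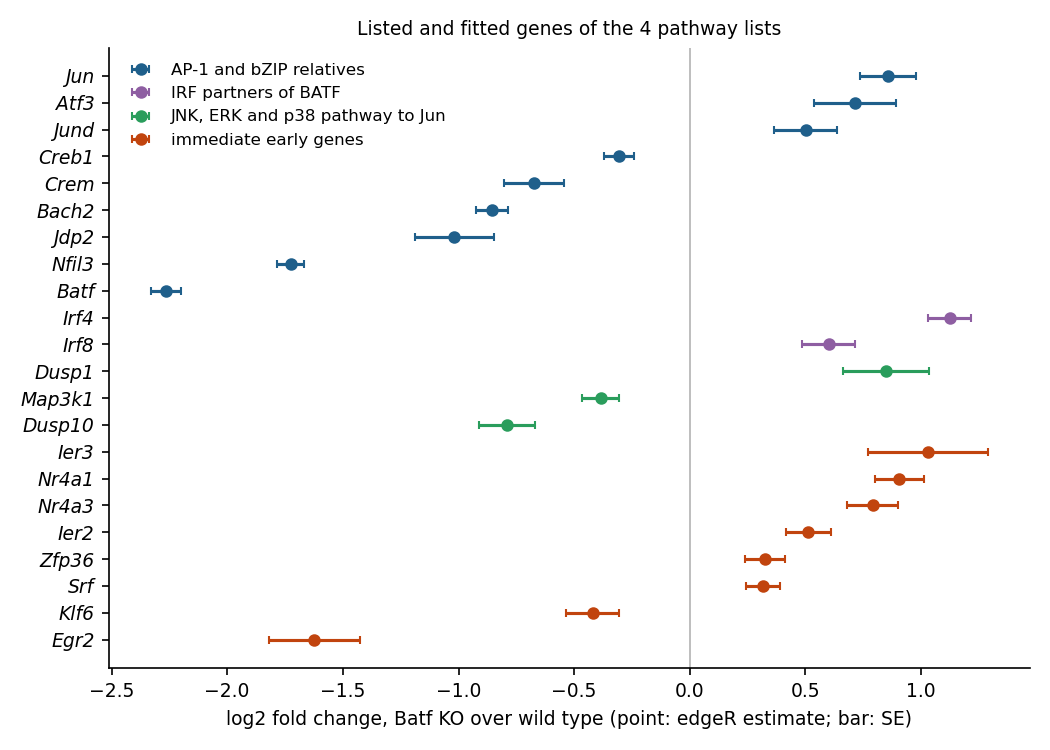
The log2 fold change of Batf KO over wild type (x axis, edgeR estimate with its SE) for the listed and fitted genes of 4 lists, in the order AP-1 and bZIP genes, IRF partners, kinase pathways to Jun and immediate early genes. Batf at -2.26 is the lowest and Irf4 at 1.12 the highest.

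Within 1 Mb of Batf, 4 of 54 other annotated genes were listed (7.41%, against 3.81% of all genes tested). Jdp2, chosen with its difference known, was 1 of them. These shares have unlike bases, since how many of the 54 genes the authors tested is not known. Of the 54 genes, 26 are protein coding, and 3 of these were listed (11.5%). On the far side of Batf, the transporter gene Flvcr2, 37.5 kb away, rose 3.11-fold, and the 5S ribosomal RNA gene n-R5s64, 9.39 kb away, had 292 reads in Batf KO and 19 in wild type. Such RNA genes have many copies, and how reads shared between copies were counted is not stated. Npc2, 914 kb before Batf, fell 1.41-fold with an edgeR adjusted p of 0.104 over 19734 genes. In a mouse with an altered Batf locus, a difference at a neighbouring gene such as Jdp2 that comes from the allele and one that comes from the lack of BATF cannot be told apart by this design.

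The genes whose levels over the 7 libraries came closest to each of the 4 were found by the root-mean-square difference of log2(CPM + 0.5). Each gene was set to its own wild-type mean. The genotype difference that selected the table enters this measure, so genes of like fold change come out close. For Batf the closest were Ighg3 (0.18), an antibody constant gene with close copies, the SLAM family receptor gene Slamf6 (0.24) and Rab43 (0.25). For Jun they were Cblb (0.10), a ubiquitin ligase gene, Bco2 (0.11) and the granulin gene Grn (0.14). For Jund they were Epop (0.09), Zfp395 (0.12) and Lmo4 (0.13), and for Jdp2 they included Lpxn (0.12) and Bach2 (0.13). The added 0.5 CPM shrinks differences of genes with few reads. Ighg3, at 1.16 CPM in Batf KO, fell 6.49-fold, beside 4.80-fold for Batf. Bco2, at 0.80 CPM in Batf KO and 0.25 CPM in wild type, is 3.07-fold higher in the authors' deposited table, beside 1.81-fold for Jun. The fold changes of these 2 genes are thus further from those of Batf and Jun than the profile difference shows. The median difference over the listed genes was 1.67 for Batf, 0.62 for Jun, 0.58 for Jund and 0.84 for Jdp2. Cblb was at 29.1 ± 6.33 CPM in wild type (SD, n = 4) and 49.2 ± 0.45 CPM in Batf KO (SD, n = 3), and Lpxn at 204 ± 11.6 and 106 ± 6.50 CPM.

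Of the markers of T, myeloid, erythroid and platelet cells, 3 of 27 were listed, each higher in Batf KO, where 1.95% of all genes tested were listed as higher (3.81% in either direction). They were Cd8b1 of 10 T and NK cell genes (5.24 to 7.42 CPM in Batf KO, 1.48 to 2.59 in wild type), Zbtb46 of 10 myeloid genes (73.6 to 89.6 against 47.4 to 65.6 CPM) and Pf4 of 7 erythroid and platelet genes (0.76 to 1.04 against 0.28 to 0.63 CPM). Of 6 plasma cell genes, Irf4 was higher and Prdm1 lower (6.11 ± 0.81 CPM in Batf KO, SD, n = 3, and 10.2 ± 2.57 CPM in wild type, SD, n = 4). Zbtb46 (edgeR adjusted p = 0.0744) and Prdm1 (0.276) did not pass over 19734 genes, and Pf4 was below the filter and was not fitted. The remaining markers have no level here, and the part of other cells in the results for the 4 genes was not tested. In bulk RNA, fewer cells with a transcript and less of it per cell cannot be told apart. Jun, Jund and Jdp2 each overlap another annotated gene, Junos over 689 bp, Gm11175 over 919 bp and Gm47863 over 165 bp. None of these 3 genes is listed, and since the sources used here do not give the strand setting of the counting, reads from such a pair cannot be separated.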

How the data were processed

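RNA-seq of 3 Batf KO and 4 wild-type libraries was used, grouped by the genotype label. Per the submitters' processing notes, the tools were TopHat2 (2.0.6), HTSeq (0.5.3p7) and edgeR (3.03) and the build was mm10, with no roles stated. The sources used here do not give the annotation or strand setting. The authors deposited 1 table of 752 genes with read counts and CPM per library, and with their own log2 fold change, log2 mean CPM, likelihood ratio (a score), p-value and FDR, per the file headers. It holds only genes with an FDR under 0.05 (highest 0.0499).

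Counts were tested in R 4.3.3 by edgeR 4.0.16 (quasi-likelihood F-test, two-sided), with library sizes recovered from count and CPM, on the 667 genes with a mean of at least 1 CPM. Calls used a Benjamini-Hochberg adjusted p under 0.05. SE is the log2 fold change divided by the square root of F. Of the fitted genes, 667 (100%) passed, 339 higher and 328 lower, as the selection of the table led them to. A stricter adjustment counted the 19734 genes the authors tested, with all genes that were not fitted at p = 1, listed or not. The exact permutation test was run with scipy 1.17.1 on the difference of mean CPM. Positions and exons came from GENCODE M21 (GRCm38, also called mm10, 742 of 752 identifiers matched), and promoters from RefSeq (GRCm38.p6, all 4 genes matched).

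Alternatives were DESeq2 1.42.0, limma 3.58.1 with a pseudocount of 0.5 or 1 CPM, other scalings, no filter or at least 5 CPM, other gene lengths, and each library left out. Named genes were the 4 genes, listed genes of 4 pathway lists, listed genes within 1 Mb of Batf and the 3 closest profiles to each gene, beside cell type markers. The values of 2 of these genes are not reported here. The 4 genes and the lists were chosen with earlier results of these data known. Counting error is that of Poisson counts at each library's depth and covers counting only.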

Additional observations from a re-analysis of the deposited data

Results flagged for a closer look

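Wild-type values of the 4 genes, their ratios and shares and the fitted named genes were searched for a library far from the other 3, using Dixon's ratio of the gap to the range at its 95% limit for 4 samples. Chance gives about 2.5 of the 50 sets searched, and 1 was found: Creb1 was at 172 CPM in wild-type replicate 4 and at 154 to 156 CPM in the other 3. None of the values of Batf, Jun, Jund and Jdp2 in wild type met this rule. With 3 libraries, Batf KO was not searched.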

How the results depend on the processing

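Batf, Jun and Jdp2 kept their direction and passed in each alternative that fitted them, which for Jdp2 excludes the minimum of 5 CPM. Jund kept its direction, passed in 14 of 15, and did not pass over 19734 genes (log2 fold change 0.50, edgeR adjusted p = 0.199), a stricter adjustment by construction. There the listed genes called fell from 339 to 134 higher and from 328 to 152 lower. With a library left out, the log2 fold change ran from -2.31 to -2.23 for Batf, 0.78 to 0.93 for Jun, 0.37 to 0.59 for Jund and -1.18 to -0.87 for Jdp2, with adjusted p up to 0.0320, and the calls ran from 323 to 339 higher and 326 to 328 lower. Of 36 other named genes, 16 did not pass over 19734 genes, none was lost under another alternative and none reversed. Because the table was selected on these libraries, this stability is not independent evidence. For all 6 log2 ratios, the difference between groups moved by less than the SD pooled over both groups. This held when they were taken from log2(CPM + 1) or summed reads, and with a library left out. Jund to Jdp2 came closest to that limit, with a difference of 1.55 that fell to 1.35 at a pooled SD of 0.21. The shares depended on the lengths. With the longest transcript of each gene, Batf, Jun, Jund and Jdp2 made up 26.2%, 30.1%, 43.0% and 0.70% in Batf KO, and Batf, Jun and Jund 72.1%, 9.57% and 17.5% in wild type. Without length scaling, Batf, Jun and Jund made up 12.9%, 49.5% and 37.0% in Batf KO, and Batf, Jun and Jdp2 53.1%, 23.4% and 1.05% in wild type, so the order of Jun and Jund turned while Batf stayed first in wild type and behind both in Batf KO. No paired analysis was possible because no mouse number in the labels occurs in both groups. Depth limits Jdp2, with 57 to 116 reads per Batf KO library.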
